A study of Homo sapiens with 6 samples.

Results

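Ribosome assembly factors of the nucleolus were examined in H9 cells, an established human cell line that the labels call a cutaneous T lymphocyte, after exposure to the compound PA4. The set held 30 genes, taken by symbol from a table of 26485 genes, and all 30 were found and passed the filter on low counts. Cells of 3 libraries received the vehicle DMSO (control) and cells of 3 libraries received PA4 at 1 µM, in both cases for 24 h. PA4 is known here by its code name alone. The labels do not tell whether replicates were separate cultures, so the p-values below describe the spread between these libraries, which may be technical. RNA was measured in bulk, where fewer cells of one kind and less RNA per cell cannot be told apart.

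Library totals lay between 18282212 and 22875191 counts. The T cell gene CD3E had 2099 to 2529 counts per library and the skin-homing receptor gene CCR4 had 1808 to 2280, whereas CD2 had at most 1, CD4 had 6 to 12 and CD8A had 1 to 5. The epithelial gene EPCAM had 2387 to 3022 and CDH1 had 127 to 178, but the epithelial keratin genes were near 0. KRT5 and KRT8 had 1 to 5 each and KRT18 had 0 to 4. Summed over 11 T cell markers, the counts were 14405 to 15219 in control and 13627 to 17558 with PA4. These marker counts are raw and not scaled to the library totals, so their ranges also reflect depth.

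Ribosomes are built in the nucleolus. RNA polymerase I makes a long precursor RNA there, and small nucleolar ribonucleoproteins (snoRNPs) bind it and guide methylation, pseudouridylation and cleavage. Assembly factors then fold and trim the precursor into a small and a large subunit, which leave for the cytoplasm. The demand for ribosomes is high in dividing lymphoma cells, and the transcription factor MYC is a known activator of many of these genes.

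The transcripts of this machinery stayed close to their control levels with PA4, and the intervals around the fold changes were narrow for nearly all of them. In edgeR's quasi-likelihood test 0 of the 30 genes were called at an adjusted p under 0.05, against 0.231% of the 12107 tested genes, and DESeq2 and limma-voom, which called 0.289% and 0.223% of all tested genes, called 0 members as well. At an unadjusted p under 0.05 there were also 0 members by each of the 3 tools, where edgeR gave 5.29% of all tested genes, DESeq2 2.69% and limma-voom 5.26%. The lowest adjusted p among them was 0.976. Estimated log2 fold changes ran from -0.035 for IMP4 to 0.17 for PPAN, with a median of 0.012 beside -0.0040 over all tested genes. These limits moved with single libraries. The lowest estimate was -0.11 for BOP1 without control replicate 3, -0.069 for IMP4 without PA4 replicate 1, -0.059 for WDR43 without control replicate 1 and -0.058 for BOP1 once PA4 replicate 2 was dropped. The highest, of PPAN in each case, was 0.28 without control replicate 1 and 0.11 without control replicate 3, and the median was 0.023 without control replicate 3. Of the 30 estimates, 21 were positive and 9 negative, where 47.6% of all tested genes were positive. Among tested genes with a mean of 50 CPM (counts scaled to library size) or more, 52.2% were positive, at a median of 0.0020. The median of the members was positive in each of 14 alternative analyses, but these reuse the same libraries and are not independent of each other. In the reported fit the median was below the standard error of any single member, which is not the error of a median over 30. Whether the median differs from 0 was not tested.

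For comparison, HMGCS1, an enzyme that feeds sterol synthesis, was the called gene taken as a reference. It had 327, 346 and 362 CPM in control replicates 1 to 3 and 672, 668 and 669 CPM in PA4 replicates 1 to 3. Its groups were far apart, and its log2 fold change was 0.96 ± 0.036 (SE), with an adjusted p of 8.62e-11 in edgeR's quasi-likelihood test.

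**Figure D1:**
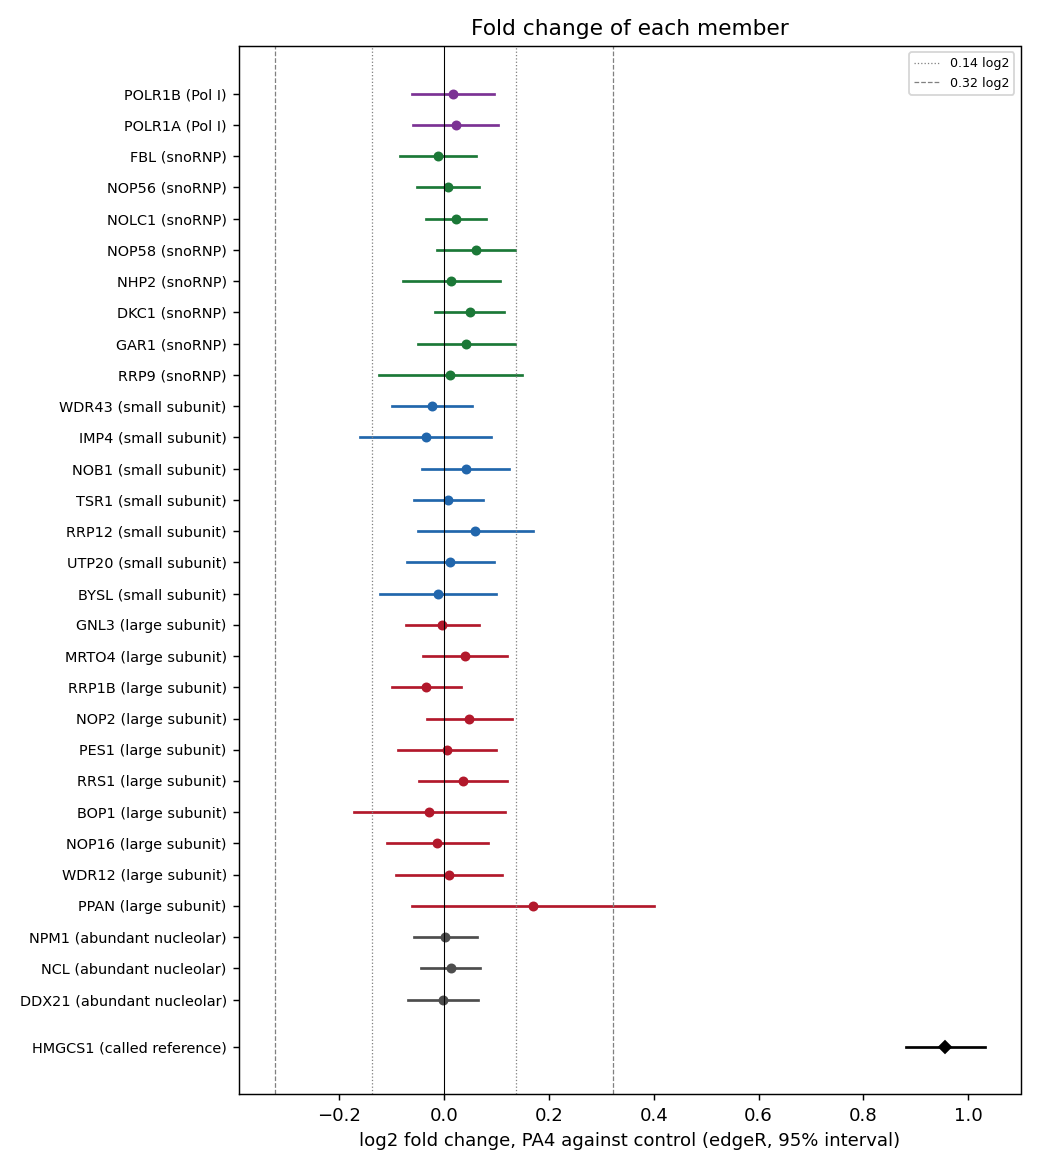
Log2 fold change of PA4 against control (x axis) for the 30 members, grouped by step and in order of level within a step, with points for the edgeR estimate and bars for its 95% interval; HMGCS1 is drawn below as a called gene. Every member's bar crosses 0, and the bar of PPAN alone reaches past the dashed line at 0.32 log2.

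The intervals show which sizes of difference remain compatible with the libraries. For 29 of the 30 members the whole 95% interval stayed within 0.32 log2 units of 0, a fold of no less than 0.8 on the lower side, against 71.7% of all tested genes. For 25 it stayed within 1.1-fold, against 24.4%. The members were abundant, with a median of 211 CPM against 30.1 CPM over all tested genes. Of the 4542 tested genes that averaged at least 50 CPM, 4518 stayed within 0.32 log2 units of 0 and 60.7% within 1.1-fold. The wider bound therefore did not set the members apart from other abundant genes. These abundant genes had a median of 110 CPM, below that of the members, so the shares within 1.1-fold are not matched for level. The 5 members with wider intervals were PPAN, BOP1, RRP9, IMP4 and RRP12. These 5 had transcript GC contents of 57.6% to 65.7%, and the spread among control libraries was also widest in them, as described further down.

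RNA polymerase I was represented by its large catalytic subunits. POLR1A, the largest subunit, had 156, 152 and 156 CPM in control replicates 1 to 3 and 153, 157 and 162 CPM in PA4 replicates 1 to 3. The groups overlapped, and the log2 fold change was 0.022 ± 0.038 (SE). POLR1B, the second largest subunit, had 142, 145 and 141 CPM in control and 144, 143 and 146 CPM with PA4, also overlapping, at 0.017 ± 0.037 (SE). The coefficient of variation within control was 1.51% for POLR1A and 1.63% for POLR1B, so the members of this step repeated closely between libraries.

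The snoRNP step held 8 members, of which 7 had positive and 1 a negative log2 fold change, with a median of 0.019. Box C/D particles, which methylate ribosomal RNA, share the core proteins FBL, NOP56 and NOP58. FBL, the methyltransferase, had 479, 470 and 451 CPM in control and 466, 475 and 448 CPM with PA4. NOP56, a scaffold protein of the core, had 635, 643 and 650 CPM in control and 648, 650 and 641 CPM with PA4. Both genes overlapped between the groups, and the fold change had a 95% interval of 0.944 to 1.04 for FBL and 0.965 to 1.05 for NOP56. NOP58, the partner of NOP56, had 325, 341 and 350 CPM in control and 349.97, 349 and 361 CPM with PA4. Of the 30 members it had the lowest unadjusted p, 0.103 in edgeR's test across all genes, with a log2 fold change of 0.061 ± 0.035 (SE), and 2 of its PA4 libraries were just below the highest control library. RRP9, a protein particular to the U3 particle that is needed for early cleavages, had 83.3, 74.8 and 68.4 CPM in control and 79.97, 77.1 and 71.1 CPM with PA4. Here the control libraries alone spanned a wider range than the PA4 libraries.

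Box H/ACA particles, which convert uridine to pseudouridine, were represented by DKC1, GAR1 and NHP2. DKC1, the pseudouridine synthase dyskerin, had 425, 428 and 443 CPM in control and 449, 440 and 452 CPM with PA4, a log2 fold change of 0.049 ± 0.031 (SE). GAR1, a core protein of the particle, had 78.6, 82.1 and 82.5 CPM in control and 82.7, 82.9 and 85.0 CPM with PA4. It was the 1 member whose groups did not overlap, by a margin far smaller than the spread within control, and 11.2% of all tested genes did not overlap. NHP2, another core protein, had 84.8, 86.4 and 81.2 CPM in control and 85.2, 85.6 and 84.1 CPM with PA4, at 0.014 ± 0.044 (SE). NOLC1, a nucleolar phosphoprotein that chaperones both kinds of particle, had 919, 936 and 953 CPM in control and 957, 952 and 944 CPM with PA4, at 0.023 ± 0.027 (SE).

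The step of the small subunit held 7 members, 4 with positive and 3 with negative log2 fold changes and a median of 0.0082. UTP20 and WDR43 belong to the large early processome on the precursor. UTP20 had 239, 247 and 264 CPM in control and 246, 256 and 254 CPM with PA4, and all PA4 values fell inside the control range. WDR43 had 302, 322 and 329.6 CPM in control and 314, 312 and 312 CPM with PA4, again inside the control range. IMP4, a U3-associated protein, had 103, 92.5 and 87.5 CPM in control and 96.4, 93.9 and 85.4 CPM with PA4, at -0.035 ± 0.059 (SE), the lowest estimate of the set.

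Of the later factors, RRP12, which serves precursor maturation and export, had 162, 140.2 and 139 CPM in control and 156, 154 and 150.1 CPM with PA4. Control replicate 1 was above every PA4 library and the other two were below every one, and the log2 fold change was 0.060 ± 0.052 (SE). BYSL, TSR1 and NOB1 act on the precursor of the small subunit up to the final cut, which NOB1 makes as an endonuclease. TSR1 had 349, 355 and 361 CPM in control and 356, 356 and 359 CPM with PA4, and its coefficient of variation with PA4 was 0.439%. NOB1 had 157, 149 and 147 CPM in control and 157, 156 and 152 CPM with PA4, at 0.041 ± 0.039 (SE). BYSL had 55.0, 53.4 and 51.7 CPM in control and 51.5, 55.2 and 52.0 CPM with PA4, at -0.012 ± 0.052 (SE).

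The step of the large subunit held 10 members, 6 with positive and 4 with negative log2 fold changes and a median of 0.0079. PES1, BOP1 and WDR12 form the PeBoW complex, which is needed for the processing of large-subunit RNA. PES1 had 225, 216 and 198 CPM in control and 217, 216 and 209 CPM with PA4. WDR12 had 79.4, 86.3 and 85.2 CPM in control and 86.2, 81.3 and 85.1 CPM with PA4. BOP1 had 157, 139.8 and 122 CPM in control and 139.7, 143 and 128 CPM with PA4. All PA4 libraries of the 3 genes lay inside the control range, and the log2 fold changes were 0.0063 ± 0.044 (SE) for PES1, 0.0095 ± 0.047 (SE) for WDR12 and -0.028 ± 0.068 (SE) for BOP1.

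NOP2, a methyltransferase of large-subunit RNA, had 237, 228 and 219.7 CPM in control and 239.8, 239.7 and 227 CPM with PA4, at 0.048 ± 0.038 (SE). GNL3, the GTPase nucleostemin, which marks proliferating cells, had 409, 424 and 439 CPM in control and 424, 419.6 and 426 CPM with PA4, at -0.0026 ± 0.033 (SE). RRP1B had 437, 425 and 439.5 CPM in control and 415, 431 and 426 CPM with PA4, at -0.033 ± 0.031 (SE). The groups of all 3 genes overlapped. MRTO4, which resembles a protein of the ribosomal stalk, RRS1, which helps to place the 5S particle, and the assembly factor NOP16 had log2 fold changes of 0.040 ± 0.038, 0.037 ± 0.039 and -0.013 ± 0.046 (SE each), and their groups overlapped too.

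PPAN, another large-subunit factor, had the largest estimate and the least certain one. Its counts were 175, 143 and 138 in control and 183, 210 and 153 with PA4, or 9.06, 7.43 and 7.24 CPM against 9.06, 9.21 and 8.38 CPM. The fold was 1.12, with a 95% interval of 0.959 to 1.32, and control replicate 1 fell within the range of the PA4 libraries. In GENCODE release 29, 83.2% of the exon bases of PPAN are shared with the readthrough gene PPAN-P2RY11, which has 0 counts in each library. PPAN lies on chromosome 19 of GRCh38 at 10106223 to 10112012. Its counts are therefore a lower limit of its level if reads on shared bases were not assigned, and the handling of such reads is not given in the sources used here.

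The remaining 3 members are abundant nucleolar proteins that act at several steps. NCL, nucleolin, had 2656, 2738 and 2837 CPM in control and 2739.7, 2791 and 2776 CPM with PA4. NPM1, nucleophosmin, a chaperone of ribosomal proteins, had 2073, 2173 and 2239 CPM in control and 2181, 2139 and 2179 CPM with PA4. DDX21, an RNA helicase, had 1136, 1174 and 1228 CPM in control and 1164, 1158 and 1210.1 CPM with PA4. Every PA4 library of these 3 genes lay inside the control range. The 95% intervals of the fold change were 0.970 to 1.05 for NCL, 0.961 to 1.04 for NPM1 and 0.953 to 1.05 for DDX21.

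**Figure D2:**
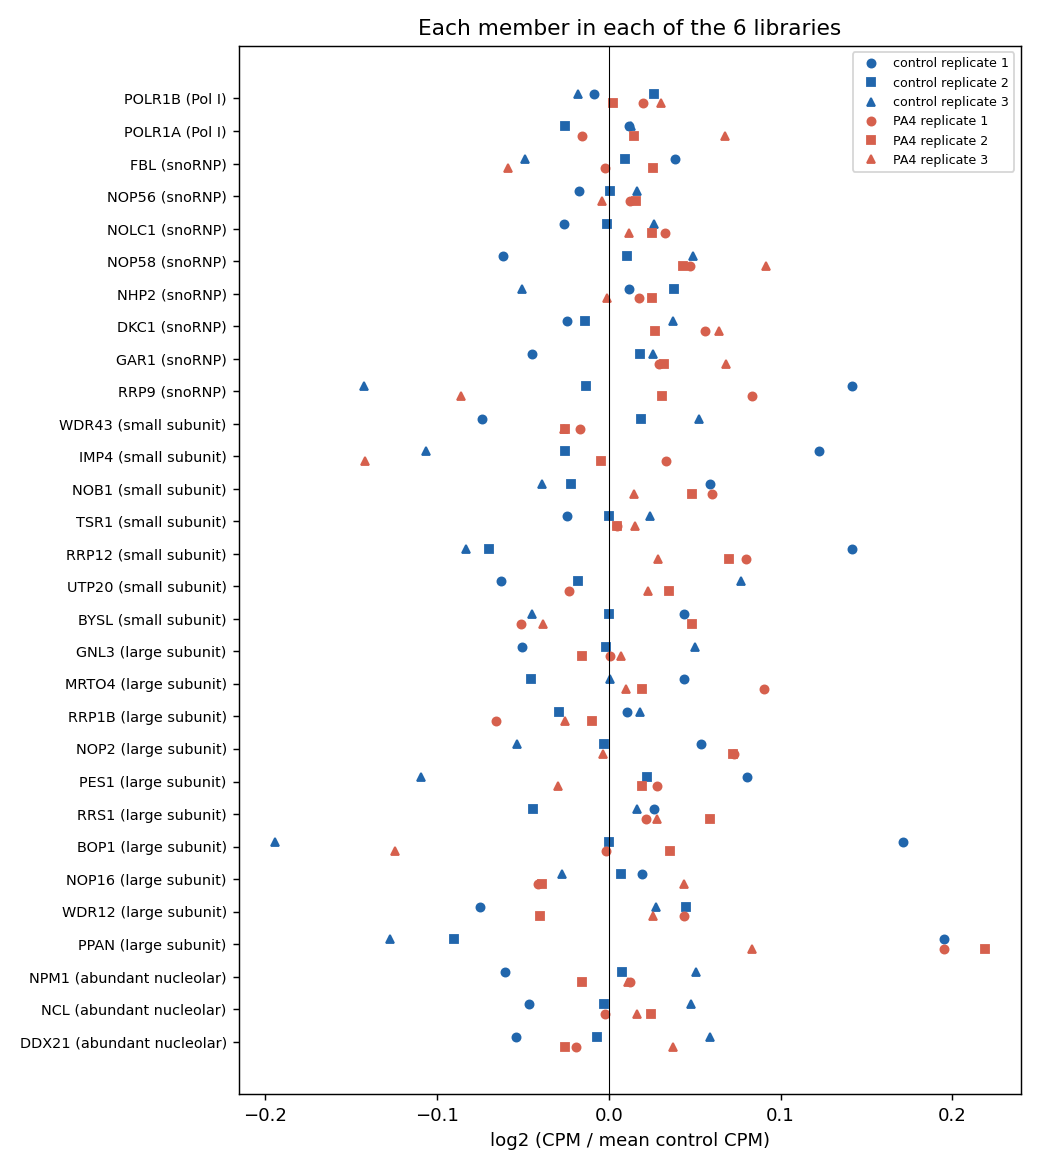
CPM of each member in each library, as the log2 ratio to the mean of the 3 control libraries (x axis), with control libraries in blue and PA4 libraries in red and a marker shape for each replicate number. The colours mix in nearly every row, and control replicates 1 and 3 often lie at opposite ends, as in BOP1 with 157 and 122 CPM.

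As a share of all counts, the 30 genes took 1.277% ± 0.0212 of a library in control and 1.281% ± 0.00171 with PA4 (SD, n = 3 each). NCL, NPM1 and DDX21 together made up 47.7% ± 0.887 of that share in control and 47.6% ± 0.323 with PA4 (SD, n = 3 each). Both measures differed by less than the spread between control libraries.

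Levels between genes were compared as CPM per kilobase of gene model, with means and SDs over all 6 libraries. NPM1 was highest at 1216 ± 30.9 and NCL next at 1014 ± 22.5, followed by FBL at 399 ± 10.9 and NOP56 at 294 ± 2.73. NOLC1 at 238 ± 3.58 and DDX21 at 235 ± 6.86 did not differ beyond their spread. Within the box C/D core, NOP58 at 176 ± 6.24 was below NOP56, and the 6 libraries of these 2 genes did not overlap. Within the box H/ACA core, NHP2 at 99.1 ± 2.11 and DKC1 at 97.2 ± 2.44 overlapped, and GAR1 was lower at 65.0 ± 1.64. The PeBoW genes followed the order PES1 at 74.4 ± 3.29, BOP1 at 57.1 ± 5.07 and WDR12 at 36.8 ± 1.26, with no overlap between them.

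The polymerase subunits were near the bottom of the order, POLR1B at 26.0 ± 0.358 and POLR1A at 23.5 ± 0.532, also without overlap. UTP20 at 27.8 ± 0.962 and BYSL at 26.7 ± 0.833 were their nearest neighbours above, and BYSL overlapped with both UTP20 and POLR1B. PPAN was last at 4.86 ± 0.504, with the limit on its counting given above. The gene lengths are those of the deposited table, and some of these orders depend on them. With the union of all GENCODE release 29 exons as the length, which was tried after the data were seen, the lengths of 23 of 30 members changed by less than 1.1 times. WDR12, at 8100 bases in place of 2282, went to 10.4 ± 0.354 CPM per kilobase, and POLR1A, at 12749 in place of 6637, to 12.3 ± 0.277, which placed WDR12 below both polymerase subunits. DKC1, at 3080 bases in place of 4523, rose to 143 ± 3.58 and no longer overlapped NHP2 at 97.7 ± 2.08. IMP4 went from 88.7 ± 5.91 to 53.5 ± 3.56. PES1 at 72.6 ± 3.21 and BOP1 at 60.1 ± 5.34 then overlapped, and BYSL at 26.2 ± 0.817 fell just below POLR1B at 26.5 ± 0.364. NPM1 at 830.4 ± 21.1 and NCL at 683 ± 15.1 were still the highest, and PPAN was still the lowest at 4.83 ± 0.501. Which exons H9 cells use was not tested.

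**Figure D3:**
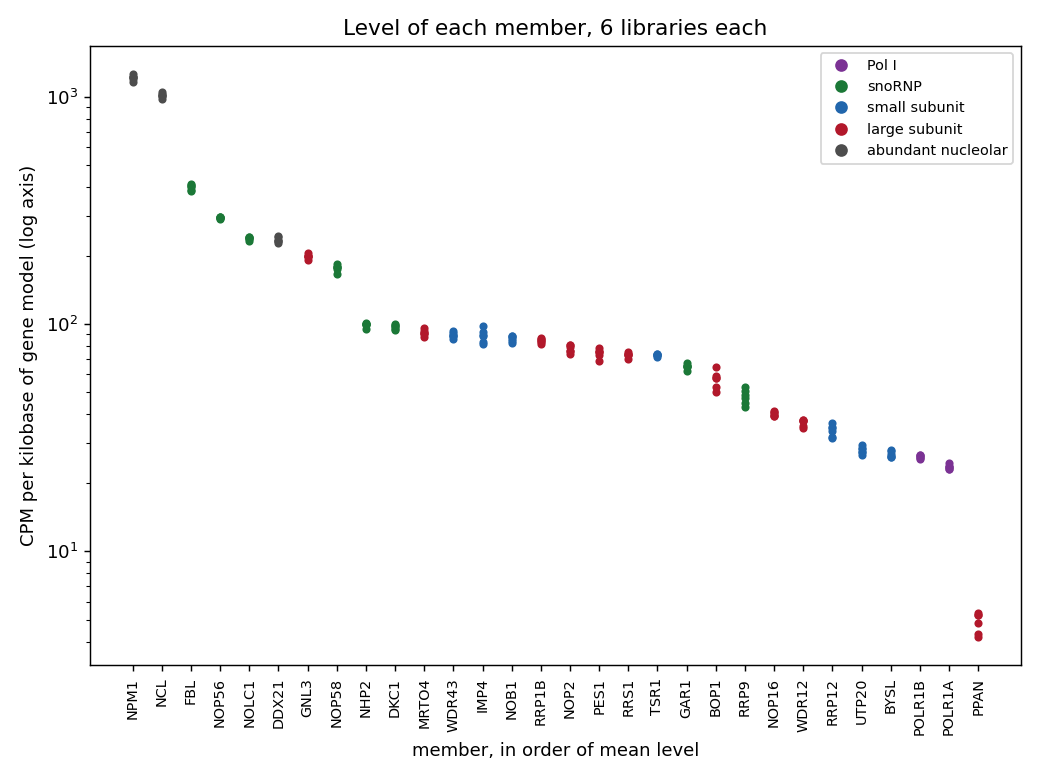
CPM per kilobase of gene model (log axis) for each member in order of mean level, with 1 point per library and colours for the step. NPM1 at 1216 and NCL at 1014 stand above FBL at 399, and PPAN is below all others at 4.86.

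Overlap with other genes could touch a few of these values. In GENCODE release 29, 43.8% of the exon bases of NHP2 are shared with RMND5B on the opposite strand, and 21.4% of those of TSR1 with SRR. The partners had few counts, 114 to 188 for RMND5B and 137 to 183 for SRR, against 1535 to 1953 for NHP2 and 6556 to 8128 for TSR1. NOP16 shares 12.3% of its exon bases with HIGD2A, which had 381 to 509 counts against 1436 to 1705 for NOP16. IMP4 shares 7.18% with CCDC115, which had 516 to 661 counts against 1559 to 2142 for IMP4. Whether strand was used in counting is not given in the sources used here. If it was not, reads on shared bases may have been left unassigned, however few counts the partner had. The counts of these genes, like those of PPAN, would then be lower limits, which also bears on their place in the order of levels.

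Single libraries differed by more than the group means did. The largest log2 ratio between 2 control libraries was 0.37, for BOP1 in replicate 1 against replicate 3. Between the groups, PPAN was at -0.35 in control replicate 3 against PA4 replicate 2. In all 30 members the range among the 3 control libraries was wider than the difference between the group means, as it was in 88.0% of all tested genes. A range of single libraries is readily wider than a difference of means over 3, so that comparison says little about the members. The median range, in log2, was 0.097 within control and 0.054 within PA4. The ratio between control replicates 1 and 3 went with base composition. Of 18 members with a transcript GC content above 50%, 14 were higher in control replicate 1, while of 12 members at or below 50% only POLR1B was. BOP1, the member richest in GC at 65.7%, was 0.37 log2 higher in control replicate 1, and UTP20, at 42.3%, was 0.14 log2 lower. Across the 30 members the Spearman rho between this ratio and GC content was 0.949, beside 0.634 across 11817 tested genes. It describes the same 2 libraries at every point, and genes are not independent replicates. Of all pairs of libraries, this pair had the highest rho, and a relation to GC content was not limited to control. Between PA4 libraries, rho across the members was 0.84 for replicates 2 and 3, 0.64 for replicates 1 and 3 and -0.21 for replicates 1 and 2. For PA4 against control, the rho across members was -0.038.

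The contrast in composition can be read from the coding sequences. The middle 90 coding bases of RRP9, at a transcript GC content of 60.9%, and of WDR12 and DDX21, the members poorest in GC at 40.2% and 40.6%, are shown from GENCODE release 29 in the sense direction, with G and C in capitals.
RRP9: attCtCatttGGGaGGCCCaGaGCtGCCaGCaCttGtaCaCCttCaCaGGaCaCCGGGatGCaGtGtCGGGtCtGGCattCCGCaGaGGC
WDR12: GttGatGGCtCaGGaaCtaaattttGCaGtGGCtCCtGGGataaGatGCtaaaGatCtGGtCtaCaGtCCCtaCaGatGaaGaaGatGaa
DDX21: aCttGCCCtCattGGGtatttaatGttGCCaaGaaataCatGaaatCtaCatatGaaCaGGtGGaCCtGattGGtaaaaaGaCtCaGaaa
These stretches hold 58.9%, 43.3% and 36.7% G and C in that order. From control replicate 1 to control replicate 3, RRP9 went from 83.3 to 68.4 CPM, while WDR12 went from 79.4 to 85.2 CPM and DDX21 from 1136 to 1228 CPM. The part that GC content plays in the differences between libraries was not tested beyond the fit that follows.

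**Figure D4:**
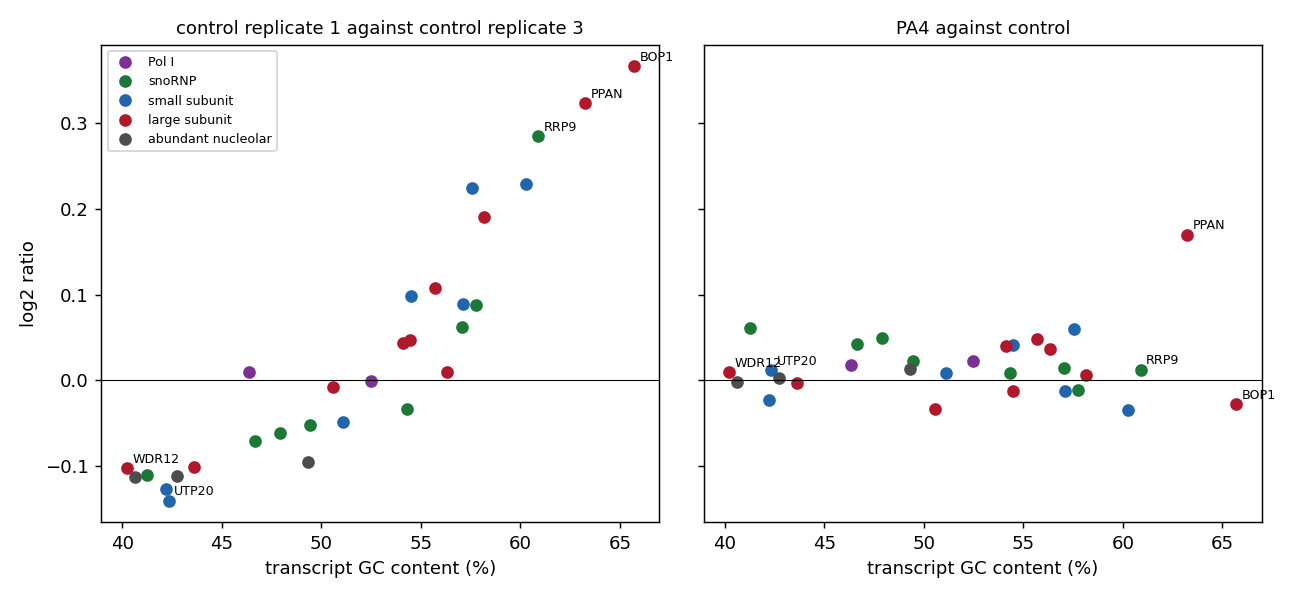
Transcript GC content in percent (x axis) against the log2 ratio (y axis) of control replicate 1 to control replicate 3 (left) and of PA4 to control (right) for the 30 members, coloured by step. The left panel climbs from -0.14 at UTP20 to 0.37 at BOP1, whereas the right panel is flat, with PPAN at 0.17 apart from the rest.

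With offsets that remove each library's trend on GC content, the median standard error of the members' log2 fold changes went from 0.038 to 0.027. Under that setting 29 of 30 intervals lay within 1.1-fold, against 37.0% of all tested genes, a share that is not matched for level. BOP1 moved from -0.028 ± 0.068 to -0.00083 ± 0.030 (SE). The number of members called stayed at 0 in edgeR, and 2 had an unadjusted p under 0.05, a threshold passed by 10.5% of all tested genes under that setting. These were NOP58, at 0.062 ± 0.023 log2 (SE), and RRP12, at 0.065 ± 0.031 log2 (SE), and their adjusted p-values in edgeR were 0.269 and 0.442.

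Leaving out control replicate 1 or control replicate 3 likewise gave 3 members at an unadjusted p under 0.05 in edgeR and 0 called, where 9.96% and 9.49% of all tested genes passed that unadjusted threshold. The 3 genes were RRP12, NOP2 and PPAN, all higher with PA4, without control replicate 1. They were NOP58 and DKC1, higher, and BOP1, lower, without control replicate 3. The lowest adjusted p of any member over all fits that leave out 1 library was 0.116 in edgeR.

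Promoters of the set were compared with those of other genes, because these genes are known to share activators. Of the 30 members, 24 matched the RefSeq promoter table of GRCh38.p14, and the 250 bases before the start were searched on both strands. BOP1, NOLC1, NOP58, RRP12, RRP1B and RRS1 had no match and were not searched. The motif CACGTG, the E-box that MYC and its partners can bind, occurred in 2 of 24, or 8.33%, beside 9.16% of the promoters of tested genes and 6.49% of all promoters. The motif CCGGAA of ETS factors occurred in 11 of 24, or 45.8%, beside 26.8% of tested genes and 14.8% of all promoters, and in 45.7% of 127 other ribosome biogenesis genes. The motif GGGCGG, the GC box, occurred in 70.8% of the members and 67.3% of tested genes. A match of letters describes the sequence and is no measured binding site, and many E-boxes of these genes may lie outside this window.

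Of the members searched, the 2 with an E-box are printed over 60 bases with CACGTG in capitals. The 3 searched members highest in level per kilobase that hold CCGGAA follow, with that motif in capitals. All run in the direction of the gene.
UTP20: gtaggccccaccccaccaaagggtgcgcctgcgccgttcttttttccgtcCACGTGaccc
IMP4: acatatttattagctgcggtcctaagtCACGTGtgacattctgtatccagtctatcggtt
FBL: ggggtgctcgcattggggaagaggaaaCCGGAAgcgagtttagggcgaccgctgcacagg
NOP56: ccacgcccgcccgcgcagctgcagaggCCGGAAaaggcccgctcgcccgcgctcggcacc
DDX21: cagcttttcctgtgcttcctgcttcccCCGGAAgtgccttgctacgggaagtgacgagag
In GRCh38.p14 these are chr12:101280045-101280104 (plus strand) for UTP20, chr2:130342667-130342726 (plus) for IMP4, chr19:39846540-39846599 (minus) for FBL, chr20:2652429-2652488 (plus) for NOP56 and chr10:68956083-68956142 (plus) for DDX21. The E-box ends 4 bases before the start in UTP20 and 197 bases before it in IMP4. The log2 fold changes with PA4 were 0.012 ± 0.039 for UTP20, -0.035 ± 0.059 for IMP4, -0.011 ± 0.034 for FBL, 0.0081 ± 0.028 for NOP56 and -0.0022 ± 0.032 for DDX21 (SE each), and each of these 5 values was smaller than its error. MYC itself had 774, 724 and 732 CPM in control and 751, 778 and 745 CPM with PA4, and its groups overlapped.

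The rest of the pathway was examined in a list of 148 further ribosome biogenesis genes, of which 140 matched by symbol and 8 by an older name, and all were tested. Here, too, edgeR, DESeq2 and limma-voom each called 0, with 0 at an unadjusted p under 0.05 in each tool. The median log2 fold change was 0.0018, with 80 positive and 68 negative values, and 9 genes did not overlap between the groups, 7 higher and 2 lower with PA4, where 5.91% and 5.31% of all tested genes did so. By step, the medians were 0.012 for 14 further genes of polymerase I transcription, 0.00065 for 12 of snoRNPs, 0.0051 for 49 of the small subunit, 0.0021 for 47 of the large subunit and -0.014 for 26 of the exosome and RNase MRP. The 95% interval lay within 0.32 log2 units of 0 for 146 genes and within 1.1-fold for 89, at a median of 99.9 CPM. The 2 with wider intervals were TSR3 and RPP25, the latter at 0.892 to 1.35 CPM.

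The gene of lowest unadjusted p in each step was taken for its values. GNL2, a GTPase of large-subunit assembly, had 181, 179 and 188 CPM in control and 190.5, 192 and 194 CPM with PA4, at 0.075 ± 0.036 log2 (SE). ZNHIT6, a box C/D assembly factor, had 139.9, 141 and 144 CPM in control and 145, 148 and 158 CPM with PA4, at 0.084 ± 0.041 log2 (SE). POP4, a protein of RNase P and RNase MRP, had 61.8, 60.1 and 61.2 CPM in control and 67.0, 62.1 and 66.4 CPM with PA4, at 0.093 ± 0.049 log2 (SE). The groups of these 3 genes did not overlap, but each was among the lowest of many p-values and had an adjusted p of 0.961 to 0.963 in edgeR. RIOK1, a kinase of small-subunit maturation, was at 0.086 ± 0.047 log2 (SE) and the polymerase subunit gene POLR1G, listed as CD3EAP, at 0.078 ± 0.042 log2 (SE), and their groups overlapped.

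**Figure D5:**
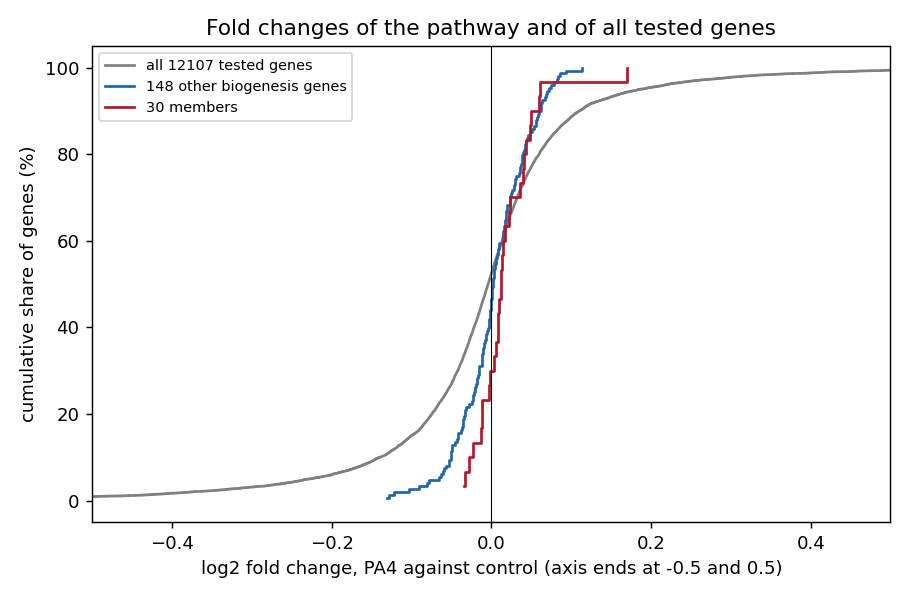
Cumulative share of genes in percent (y axis) by log2 fold change of PA4 against control (x axis, which ends at -0.5 and 0.5) for the 30 members, 148 other ribosome biogenesis genes and 12107 tested genes. Both pathway curves are steep around 0, with medians of 0.012 and 0.0018, and the curve of all tested genes is wider.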

How the data were processed

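Polyadenylated RNA of 6 libraries was sequenced by the study. In the table the authors deposited, values are raw read counts by gene, 1 column per library, beside the length of each gene model. The submitters' processing notes name Trimmomatic 0.39, fastp 0.23.2, STAR 2.7.9a and featureCounts (Subread 1.6.4) and the build hg38. The annotation, the strand setting and the treatment of multiply matching reads were not given in the sources used here.

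The counts went into edgeR 4.0.16 under R 4.3.3: filterByExpr, TMM scaling, estimateDisp, glmQLFit and glmQLFTest, two-sided, 3 PA4 against 3 control libraries, no covariate. Benjamini-Hochberg adjustment covered 12107 genes, and genes were called under 0.05. Standard errors come from the F statistic and intervals are 95% intervals. CPM use the TMM-scaled library size. Alternatives were library size alone, RLE factors, no low-count filter, a replicate block, loess offsets on GC content (span 0.5, median over the coding transcripts of GENCODE release 29), the last 2 together, DESeq2 1.42.0, limma-voom (limma 3.58.1) and leaving out each library. The edgeR procedure was also run on simulated counts. These held no trend on GC content, so that run cannot show how the intervals behave where libraries differ by GC content.

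The 30 members were fixed by symbol and are all described, and of the other pathway genes the text names the one of lowest unadjusted p per step and those with intervals beyond 0.32 log2 units, the latter chosen after their values were seen. HMGCS1 was named as a reference because it was known as a called gene, and MYC as a known regulator of the pathway. The members and lists were chosen with earlier results of these data known.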

Additional observations from a re-analysis of the deposited data

How the results depend on the processing

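In all 14 alternatives 0 members and 0 of the other biogenesis genes were called, 29 members had intervals within 0.32 log2 units, and each member's log2 fold change moved by less than its replicate SD. With 3 libraries per group, leaving out 1 shifts a group mean by less than that SD whatever the values. For the fits that left out 1 library, the comparison with the SD was therefore close to fixed in advance and says nothing about stability. Against 28 genes called in the whole table, there were 62 with no low-count filter, 59 with the replicate block, 114 with GC offsets and 163 with both the block and the offsets, and leaving out 1 library gave 17 to 74. At an unadjusted p under 0.05, members numbered 0 in the reported analysis and with the replicate block, 2 with GC offsets, 3 with both, and 0 to 3 when 1 library was left out. Of all tested genes, 5.29% passed that threshold as reported, 4.95% with no low-count filter, 7.1% with the block, 10.5% with GC offsets, 11.7% with both, and 3.6% to 9.96% when 1 library was left out. Other biogenesis genes numbered 0 as reported, 2 with no low-count filter, 5 with the block, 10 with GC offsets, 14 with both, and 0 to 12 when 1 library was left out, which is 0%, 1.35%, 3.38%, 6.76%, 9.46%, and 0% to 8.11% of the 148, each below the share of all tested genes in the same setting. The cause was not tested. Leaving out 1 library gave a median log2 fold change of the members of 0.011 to 0.023, the highest without control replicate 3, and 17 to 24 intervals within 1.1-fold. The sign of up to 10 members, all uncalled, changed when 1 library was left out. Counts within 1.1-fold, of other genes at an unadjusted p and of intervals in DESeq2 and limma-voom were added after the data were seen. Over all tested genes, deviations of libraries that share a number correlated at 0.025, -0.0084 and 0.13, and the reported fit did not take the numbers as pairs. These correlations do not settle the matter for the members. With the replicate block their median standard error went from 0.038 to 0.034. PPAN, at 138 to 210 counts, and RPP25, at 0.892 to 1.35 CPM, were thinly covered, and how far depth or the spread between libraries widened their intervals was not tested.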
